A study of Mus musculus with 4 samples.

Results

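The antiviral interferon-stimulated genes are a set of 46 mouse genes whose products block steps of viral replication or serve in the antiviral state. They were taken by name from the tables of UMI counts, in which 44 of the 46 were found among 32285 genes. Mx1 and Mx2 are not analysed here. The genes were followed in lymph node cells of wildtype C57BL/6 mice in 4 libraries, 2 from control mice and 2 from mice given 100 µg of iPSC EVs under the skin. iPSC EVs are small membrane vesicles released by induced pluripotent stem cells. The design text of the series places the harvest of the draining nodes at day 5, whereas the sample labels give 24 h. The controls were injected with PBS by the study's methods and had no treatment by the labels. The sources used here describe 2 biological replicates per group, and how many mice were pooled into a library is not given in them.

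Type I interferons bind the IFNAR receptor, and its kinases JAK1 and TYK2 switch on ISGF3, a transcription factor complex that holds IRF9 and binds the interferon-stimulated response element (ISRE) in promoters, while type II interferon acts mainly at GAS elements. The induced genes include IFIT proteins, which bind viral RNA, the OAS enzymes, which activate RNase L, the ubiquitin-like protein ISG15, and viperin. Lymph nodes are a site where lymphocytes and macrophages meet interferon early in an infection.

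Many members, but not all, hold promoter letters that the choice of genes did not use. RefSeq promoters of 250 bases before and 50 bases after the start (GRCm38.p6) were found for 34 of the 46 members, 40 promoters in all. The ISRE-like motif, spelled GAAA, any 2 bases, GAAA and read on both strands, was held by 20 of these 40 promoters and by 3.44% of all 32851 promoters of the same length. The GAS-like motif TTCNNNGAA, which reads the same on both strands, was in 6 of the 40 (15.0%) and in 8.30% of all promoters. The promoters of Ifit3, Isg15, Ifit1 and Oasl1 are shown in the direction of transcription. These are the members called higher with EVs in the most cell classes that have an entry, ordered by their p in B cells. Parp9, Parp14 and Rtp4 have none. Capitals mark the ISRE-like motif on either strand. These windows hold no GAS-like motif.
Ifit3, chr19:34583279-34583578, plus strand: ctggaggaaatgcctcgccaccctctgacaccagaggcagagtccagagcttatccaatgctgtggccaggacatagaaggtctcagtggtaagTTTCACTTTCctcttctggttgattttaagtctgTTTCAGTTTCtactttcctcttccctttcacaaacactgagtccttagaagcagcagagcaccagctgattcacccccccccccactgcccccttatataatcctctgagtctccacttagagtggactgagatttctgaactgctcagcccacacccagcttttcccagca
Isg15, chr4:156200769-156201068, minus strand: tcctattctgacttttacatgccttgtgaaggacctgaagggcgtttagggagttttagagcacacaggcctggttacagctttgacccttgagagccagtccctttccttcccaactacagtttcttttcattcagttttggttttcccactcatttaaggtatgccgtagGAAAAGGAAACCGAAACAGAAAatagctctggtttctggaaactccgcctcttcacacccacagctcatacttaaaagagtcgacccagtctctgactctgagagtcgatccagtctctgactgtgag
Ifit1, chr19:34640639-34640938, plus strand: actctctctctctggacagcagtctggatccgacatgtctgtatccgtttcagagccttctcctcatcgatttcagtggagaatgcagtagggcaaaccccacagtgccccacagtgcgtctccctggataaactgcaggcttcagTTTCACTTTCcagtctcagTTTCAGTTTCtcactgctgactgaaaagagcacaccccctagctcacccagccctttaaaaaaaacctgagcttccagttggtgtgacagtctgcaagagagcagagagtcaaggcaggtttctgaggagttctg
Oasl1, chr5:114922990-114923289, plus strand: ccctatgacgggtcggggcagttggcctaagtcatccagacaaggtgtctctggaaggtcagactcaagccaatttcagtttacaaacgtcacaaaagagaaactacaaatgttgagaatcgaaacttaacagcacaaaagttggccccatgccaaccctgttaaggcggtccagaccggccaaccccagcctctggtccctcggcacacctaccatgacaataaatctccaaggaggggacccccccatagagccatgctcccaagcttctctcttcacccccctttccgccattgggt
In Ifit3 the motif begins 156 and 122 bases before the start, in Ifit1 104 and 85 bases before it. In Isg15 3 overlapping copies begin 78, 72 and 66 bases before it. Oasl1 holds no copy with these letters in the window. Among the members tested in B cells, 16 of 17 with an ISRE-like motif and 7 of 15 without one were called higher with EVs. The median log2 fold changes of the 17 and the 15 were 0.88 and 0.57. Of all 13270 genes tested there, 1.57% were called higher. No such share was taken over all genes with or without the motif. The motif letters are a description of the sequence, and binding was not measured.

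The libraries held 50749656 and 58100433 UMIs in the control libraries 1 and 2 and 68116085 and 70418672 UMIs in EV libraries 1 and 2. Cells with 200 to 5000 genes, at most 20000 UMIs and under 10% mitochondrial UMIs were kept, which left 7891 to 8529 per library. They were assigned by UMIs of marker genes to B cells (Cd79a without Cd3e), CD4 T cells (Cd3e and Cd4 without Cd8a or Cd79a), CD8 T cells (Cd3e and Cd8a without Cd4 or Cd79a), Tregs (Foxp3 and Cd3e) and macrophages (C1qa and C1qb together at least 2, without Cd3e). The numbers of cells per library were 2503 to 4866 for B cells, 923 to 1624 for CD4 T cells, 1003 to 1861 for CD8 T cells, 117 to 213 for Tregs and 42 to 80 in the control and 91 and 67 in the EV libraries for macrophages. Of these cells, 307 are in both the CD4 T cell and the Treg gate, 41 in the CD8 T cell and the Treg gate and 51 in the B cell and the macrophage gate. B cells made up 37.0% and 31.7% of the filtered cells in control and 59.6% and 50.4% in EV libraries. For CD4 T cells these shares were 17.0% and 20.6% against 11.3% and 14.9%, and for CD8 T cells 20.7% and 23.6% against 12.3% and 15.9%. The sums of the classes thus differ in depth, so their counts of calls are not of equal power. The 6 pairs of libraries share 12 to 26 barcodes. The B cell markers Cd79a, Cd79b, Ms4a1 and Pax5 summed to 5380 to 5718 UMIs per 1000000 UMIs (CPM) in the B cell gate, and the 4 Treg markers to 3050 to 3496 in the Treg gate. The Treg gate also held 91.2 to 384 CPM of the B cell markers, and the macrophage gate 1199 and 1294 in the control and 2439 and 2352 in the EV libraries. The macrophages were shallow, with medians of 1100 to 1456 UMIs per cell. In every gate the medians of both EV libraries were above those of both control libraries. They were 5811 and 5615 UMIs in B cells against 4142 and 4905 in control, and 1456 and 1387 in macrophages against 1100 and 1114. EV library 2 stood apart in Gm42418, which overlaps ribosomal RNA sequence, with 719 to 892 CPM in the lymphocyte gates against 5464 to 5574 in EV library 1 and 7456 to 9948 in the control libraries. In bulk sums of this kind, fewer expressing cells and less RNA per cell cannot be told apart, and the cells themselves are compared further on.

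The first question was which of these genes differ with EVs in each cell class. Raw UMIs of each class were added up within a library and compared by edgeR's quasi-likelihood test across all genes, and a gene was called at an adjusted p under 0.05. In B cells, 31 of the 42 members tested were called higher in the EV libraries and none lower, whereas 1.57% of all 13270 genes tested were called higher. The log2 fold changes of the 31 ran from 0.40 to 3.42 (SE 0.08 to 0.62, edgeR adjusted p from 0.0032 to 0.050). The median of the 42 members was 0.77, and that of all genes lay within 0.01 of 0 in every lymphocyte class. In 41 of the 42, the EV libraries both exceeded both control libraries, which was so for 25.6% of all genes. With 2 libraries against 2, an exact permutation test of a single value cannot go below p = 0.33. The edgeR p-values weigh the difference against the spread between these libraries, which is estimated with help from all genes. How far mice differ cannot be read from them, as the number of mice per library is not given.

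**Figure D1:**
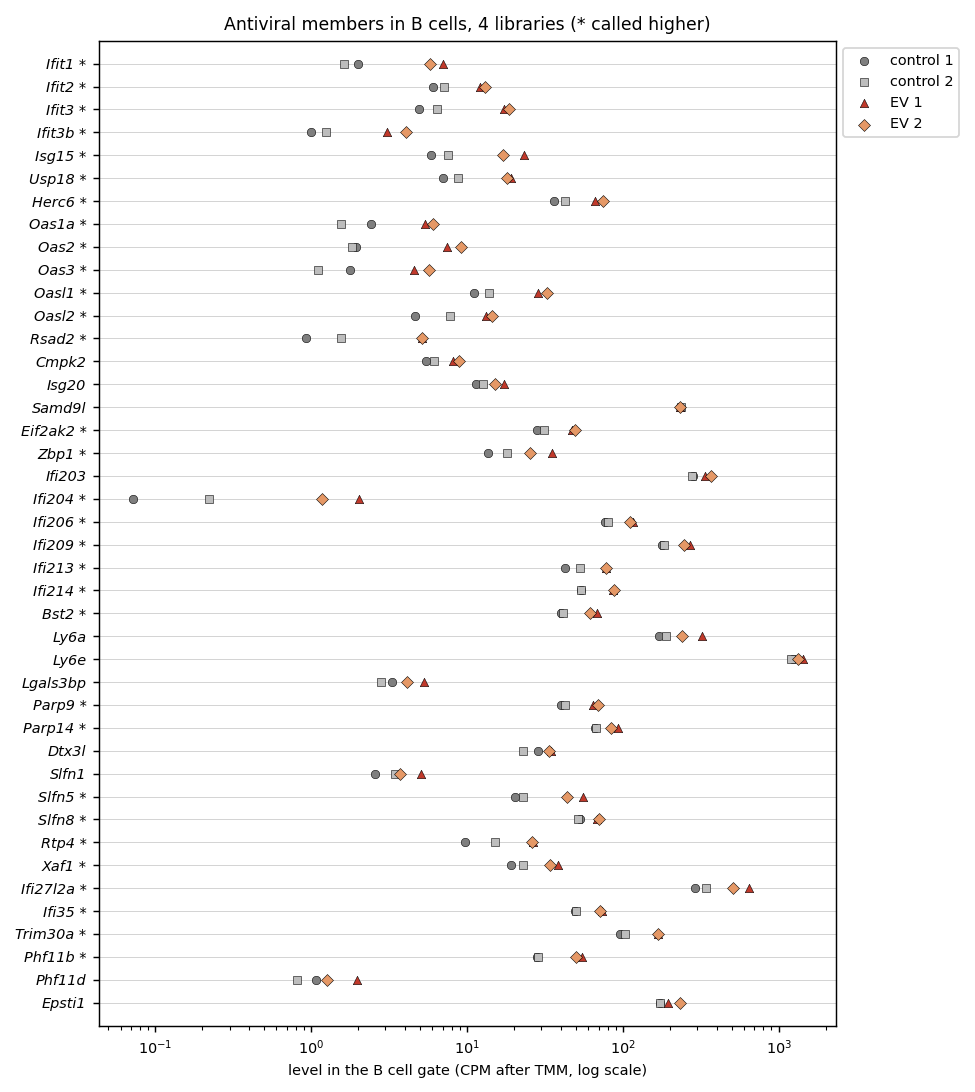
Level of each of the 42 members tested in the B cell gate, as CPM after TMM normalization on a log axis, with 1 point for each library (gray circles and squares for control, red triangles and orange diamonds for EV) and a star for members called higher. The EV points lie to the right of the control points for every gene other than Samd9l.

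The 4 IFIT genes, whose proteins bind viral RNA ends or the IFIT complex, were all called in B cells. Ifit1 stood at 2.01 and 1.62 CPM (UMIs of the gene per 1000000 UMIs of the class, after TMM normalization) in control libraries 1 and 2 and at 7.08 and 5.84 in EV libraries 1 and 2, a log2 fold change of 1.83 with SE 0.23 (edgeR adjusted p = 0.0081). Ifit3 stood at 4.94 and 6.41 CPM in control and 17.4 and 18.7 CPM with EVs (1.67, SE 0.15, edgeR adjusted p = 0.0032). For both genes the EV libraries were close to each other and well above the control libraries. Ifit3b, a close paralog of Ifit3 that can share its reads, was at 1.00 and 1.25 CPM in control and 3.08 and 4.04 CPM with EVs (1.65, SE 0.30, edgeR adjusted p = 0.030). Ifit2 was at 6.09 and 7.15 CPM in control and 12.2 and 13.1 CPM with EVs (0.94, SE 0.15, edgeR adjusted p = 0.019).

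All 3 genes of the ISG15 system rose. Isg15, the ubiquitin-like modifier, went from 5.87 and 7.59 CPM in control to 23.3 and 17.1 CPM with EVs, with a log2 fold change of 1.59 ± 0.19 (SE, n = 2 against 2; edgeR adjusted p = 0.0066). Usp18, which removes ISG15 and damps interferon receptor signaling, went from 7.02 and 8.77 CPM to 19.3 and 18 CPM (1.24). Herc6, the ligase for ISG15 in mice, went from 36.4 and 42.9 CPM to 66.3 and 75 CPM (0.83). The EV libraries did not overlap the control libraries for any of the 3.

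The OAS enzymes make 2′-5′ oligoadenylates, the second messenger of RNase L. Of the 6 OAS and OAS-like genes listed, 5 were tested and called in B cells. Oas2 rose from 1.93 and 1.84 CPM in control to 7.40 and 9.19 CPM with EVs, with a log2 fold change of 2.13 ± 0.22 (SE, n = 2 against 2; edgeR adjusted p = 0.0042). Oas3 rose from 1.79 and 1.11 CPM to 4.59 and 5.68 CPM (1.82), and Oas1a from 2.44 and 1.55 CPM to 5.37 and 6.07 CPM (1.51). Of the OAS-like genes, Oasl1 went from 11.0 and 13.9 CPM to 28.5 and 32.7 CPM (1.30), and Oasl2 from 4.66 and 7.81 CPM to 13.2 and 14.5 CPM (1.15). Oas1g had 1 UMI in each group and was not tested. Oas1a and Oas1g are near-identical paralogs, so their counts are uncertain.

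Of the nucleotide and RNA effectors, only Rsad2 was called in B cells. Rsad2 encodes viperin, which makes a chain-terminating nucleotide, and stood at 0.931 and 1.55 CPM in control and 5.14 and 5.15 CPM with EVs (2.05, SE 0.27, edgeR adjusted p = 0.010). Cmpk2, its neighbor in the genome and a nucleotide kinase, was at 5.44 and 6.12 CPM in control and 8.16 and 8.97 CPM with EVs (0.57, edgeR adjusted p = 0.11). Isg20, an exonuclease, had a log2 fold change of 0.43 (edgeR adjusted p = 0.12), and Samd9l, a high gene of the set at 234 and 236 CPM in control and 235 and 233 CPM with EVs, had −0.01 (SE 0.09). Ifi44 was found with 4 and 0 UMIs in control and 20 and 8 UMIs in EV libraries and was not tested. Both sensors were called, with Eif2ak2 (the kinase PKR) at 28.4 and 31.4 CPM in control and 47.1 and 49.1 CPM with EVs (0.69), and Zbp1 (a Z nucleic acid sensor) at 13.8 and 18.1 CPM and 35.2 and 25.4 CPM (0.93).

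The HIN-200 genes encode nuclear and cytosolic DNA-binding proteins, and 5 of 6 were called in B cells. These genes are close paralogs in 1 cluster of chromosome 1, and reads may be split between them. The change of 4 was moderate. Ifi213 went from 42.6 and 53.0 CPM to 78.1 and 77.8 CPM (0.70), and Ifi214 from 53.7 and 54.0 CPM to 86.9 and 87.8 CPM (0.70). Ifi206 went from 76.7 and 80.0 CPM to 117 and 111 CPM (0.54), and Ifi209 from 179 and 183 CPM to 269 and 247 CPM (0.51). Ifi204 had the largest fold of all members from very few molecules, with 1 and 3 UMIs in control and 62 and 31 UMIs in EV libraries. The ratio of these counts, per UMI of the class, was 10.9 (exact 95% interval 4.12 to 40.9 for counting error only). Ifi204 passed edgeR's filter on low counts through the EV libraries only. The 93 EV molecules came from 20 and 12 cells, with up to 14 in 1 cell. Monocyte markers summed to 95.3 and 54.3 CPM in the B cell gate of EV libraries 1 and 2, against 44.1 and 46.8 in control, and their part in the Ifi204 value was not tested. Ifi203 was at 281 and 277 CPM in control and 335 and 367 CPM with EVs (0.33, edgeR adjusted p = 0.12).

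Of the surface and secreted proteins, Bst2 (tetherin, which holds budding virions at the cell) was called, from 40.3 and 41.3 CPM to 68.0 and 61.2 CPM (0.66, SE 0.09, edgeR adjusted p = 0.012). Ly6a (Sca-1) was at 170 and 191 CPM in control and 320 and 242 CPM with EVs, and its adjusted p of 0.052 by edgeR missed the threshold (0.64, SE 0.14). Ly6e, an inhibitor of viral entry and the most abundant member in B cells, was at 1241 and 1200 CPM in control and 1427 and 1341 CPM with EVs (0.18, SE 0.12, edgeR adjusted p = 0.43). Lgals3bp stayed under 6 CPM (0.63, edgeR adjusted p = 0.19).

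Parp9 and Parp14, ADP-ribosyltransferase family proteins that act on interferon signaling, were called in B cells. Parp9 went from 40.3 and 42.5 CPM to 64.1 and 69.0 CPM (0.68), and Parp14 from 66.6 and 67.6 CPM to 93.0 and 84.3 CPM (0.40). Dtx3l, the ubiquitin ligase that partners Parp9, had a log2 fold change of 0.40 that was not called (edgeR adjusted p = 0.11). Of the Schlafen genes, Slfn5 went from 20.5 and 23.0 CPM to 55.7 and 44.1 CPM (1.20) and Slfn8 from 52.9 and 51.9 CPM to 68.4 and 70.8 CPM (0.41), while Slfn1 was not called (0.54, edgeR adjusted p = 0.29). Among the remaining members, Ifi27l2a, a small interferon-induced protein, had the largest gain in molecules, from 291 and 344 CPM to 643 and 508 CPM (0.86, SE 0.14, edgeR adjusted p = 0.021). Rtp4 went from 9.67 and 15.3 CPM to 26.5 and 26.0 CPM (1.08), Phf11b from 28.2 and 28.7 CPM to 54.9 and 50.2 CPM (0.88), and Xaf1, a pro-apoptotic factor, from 19.1 and 22.8 CPM to 38.4 and 34.1 CPM (0.79). Trim30a, a feedback regulator of innate sensing, went from 96.1 and 103 CPM to 169 and 168 CPM (0.76), and Ifi35 from 49.6 and 50.4 CPM to 73.6 and 71.2 CPM (0.53). Epsti1 (174 and 172 against 196 and 233 CPM, 0.31, edgeR adjusted p = 0.17) and Phf11d (0.78, edgeR adjusted p = 0.31) were not called. DESeq2 called 32 members higher in B cells (2.68% of all genes), 12 in CD4 T cells (1.09%), 14 in CD8 T cells (1.51%) and 2 in Tregs (0.977%). Without control library 1, 12 members were called in B cells by edgeR (0.455% of all genes), and without control library 2, 22 (0.635%), in each case from the single control library left.

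**Figure D2:**
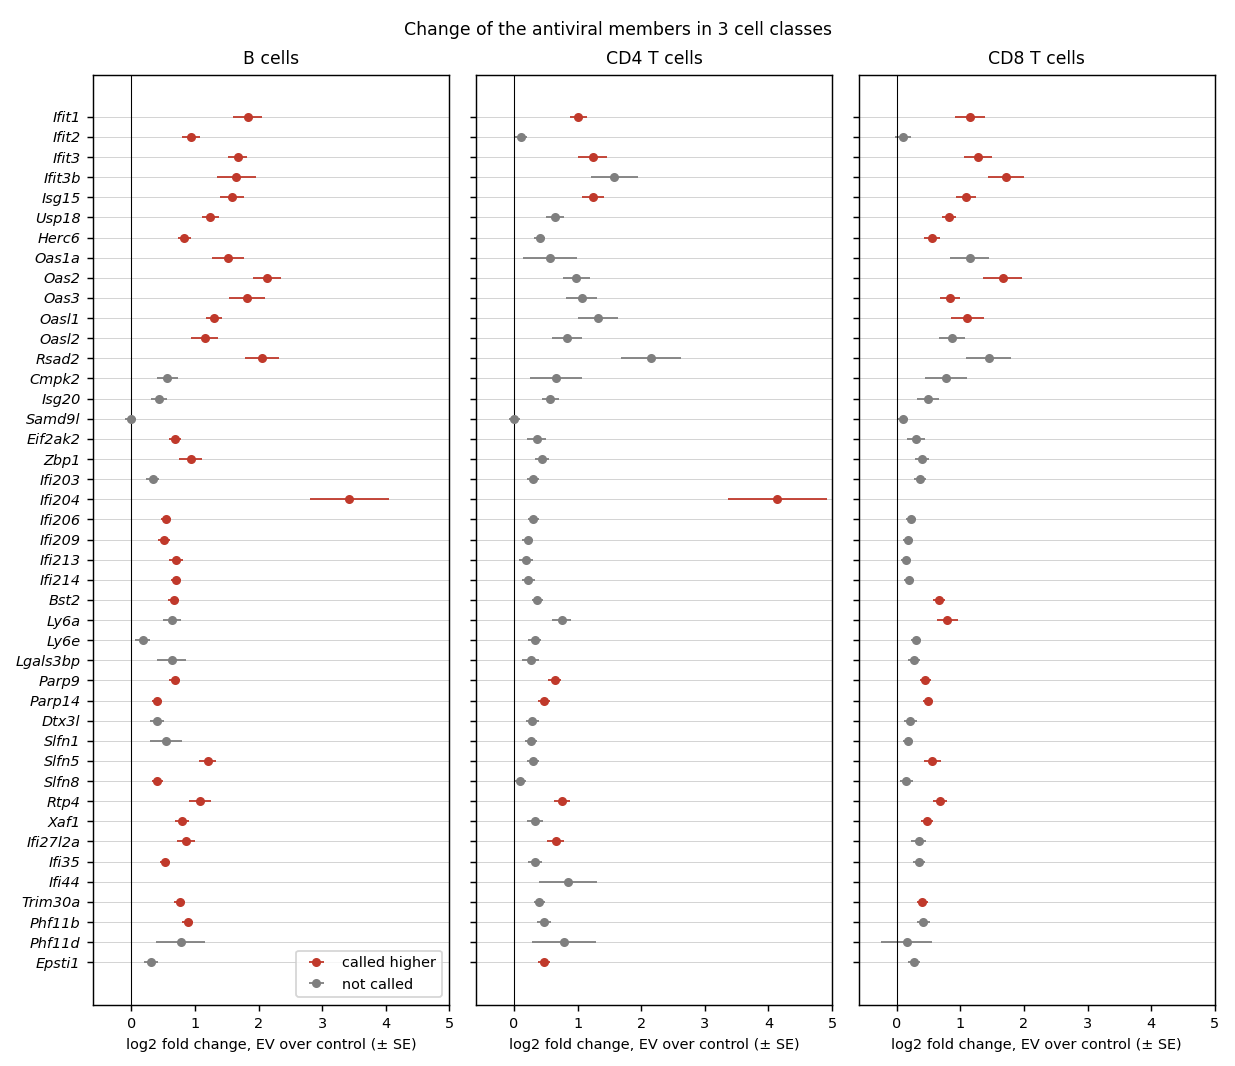
Log2 fold change of each tested member, EV over control libraries, in B cells and in CD4 and CD8 T cells, with bars of 1 SE (edgeR, 2 against 2 libraries). Red points were called higher, gray points were not called, and no member was called lower in these 3 classes.

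In CD4 T cells the same direction was seen with fewer calls. Of 43 members tested, 9 were called higher and none lower, against 0.788% of all 11933 genes called higher. The median log2 fold change of the members was 0.47, and the EV libraries both exceeded both control libraries for 40 of the 43 members and for 24.2% of all genes. Ifit1 rose from 13.6 and 15.4 CPM in control to 26.6 and 32.0 CPM with EVs (1.01, SE 0.14, edgeR adjusted p = 0.0075), Ifit3 from 5.67 and 6.28 CPM to 10.9 and 17.0 CPM (1.23), and Isg15 from 19.4 and 28.3 CPM to 65.0 and 49.4 CPM (1.24). The EV libraries both exceeded both control libraries for these 3 genes, and the control levels of Ifit1 and Isg15 were higher than in B cells. Ifi27l2a rose from 487 and 510 CPM to 894 and 676 CPM (0.66), Rtp4 from 19.0 and 23.8 CPM to 36.9 and 35.7 CPM (0.75), and Epsti1 from 188 and 179 CPM to 240 and 268 CPM (0.47). Parp9 went from 41.8 and 47.5 CPM to 73.4 and 66.3 CPM (0.64), and Parp14 from 59.0 and 63.1 CPM to 88.2 and 81.0 CPM (0.47). Rsad2 was at 1.78 and 0.849 CPM in control and 3.44 and 7.72 CPM with EVs and was not called (2.15, SE 0.47, edgeR adjusted p = 0.057). Usp18 was at 16.6 and 21.3 CPM in control and 27.4 and 31.9 CPM with EVs (0.64, edgeR adjusted p = 0.061), Oasl1 at 2.56 and 3.48 against 5.47 and 9.59 CPM (1.32, edgeR adjusted p = 0.079) and Ifit3b at 1.44 and 1.44 against 3.44 and 5.14 CPM (1.58, edgeR adjusted p = 0.070). These genes did not overlap between the groups but missed the threshold. Ifit2 was not called, with 37.4 and 39.6 CPM in control and 39.6 and 43.0 CPM with EVs (0.10, SE 0.10). Cmpk2 (2.89 and 2.29 against 2.42 and 5.54 CPM, 0.66) and Ifi44 (0.889 and 1.27 against 1.53 and 2.37 CPM, 0.84) were not called either.

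The ninth called member in CD4 T cells, Ifi204, rested on few molecules, with 0 and 3 UMIs in control and 30 and 18 UMIs in EV libraries. It passed edgeR's filter on low counts through the EV libraries only. The ratio of counts was 18.3 (exact 95% interval 5.91 to 92.1 for counting error only). The CD4 T cell gate of EV library 1 also held 31.7 CPM of the neutrophil markers S100a8, S100a9 and Csf3r, where the other libraries held 0 to 0.9, and the part of such cells in the Ifi204 value was not tested.

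In CD8 T cells, 17 of 41 members tested were called higher and none lower, against 1.34% of all 12284 genes. Their median log2 fold change was 0.45, and the EV libraries lay above the control libraries for 36 of the 41 and for 24.4% of all genes. Ifit3b rose from 1.21 and 1.67 CPM to 4.72 and 4.89 CPM (1.72), Ifit3 from 9.24 and 11.8 CPM to 18.1 and 32.4 CPM (1.27), and Ifit1 from 9.92 and 16.7 CPM to 22 and 37.2 CPM (1.15, SE 0.23, edgeR adjusted p = 0.0275). Isg15 rose from 19.9 and 28.2 CPM to 43.3 and 59.4 CPM (1.09), Usp18 from 17.9 and 21.0 CPM to 32.3 and 36.7 CPM (0.82, SE 0.11, edgeR adjusted p = 0.0043), and Herc6 from 69.8 and 80.8 CPM to 92.5 and 127 CPM (0.55). EV library 2 was above EV library 1 for each of these 6 genes. Of the OAS family, Oas2 rose from 1.82 and 2.26 CPM to 4.53 and 8.34 CPM (1.66), Oasl1 from 3.26 and 4.17 CPM to 5.90 and 10.0 CPM (1.11), and Oas3 from 9.31 and 9.05 CPM to 14.2 and 18.4 CPM (0.84). Bst2 rose from 69.3 and 82.6 CPM to 116 and 124 CPM (0.66), and Ly6a from 16.3 and 19.7 CPM to 37.6 and 25.8 CPM (0.80). The other called members were Parp9 (51.2 and 57.4 CPM against 73.2 and 75.3 CPM), Parp14 (55.6 and 57.4 against 80.6 and 78.0 CPM), Slfn5 (24.8 and 32.5 against 37.9 and 46.7 CPM), Rtp4 (25.1 and 31.8 against 45.5 and 45.9 CPM), Xaf1 (28.1 and 28.2 against 38.8 and 39.6 CPM) and Trim30a (109 and 118 against 141 and 159 CPM), with log2 fold changes from 0.40 to 0.68. Rsad2 was at 1.74 and 2.09 CPM in control and 3.25 and 7.04 CPM with EVs and missed the threshold (1.44, edgeR adjusted p = 0.052). Cmpk2 (2.27 and 2.68 against 2.75 and 5.58 CPM, 0.77) and Ifit2 (20.7 and 23.9 against 21.5 and 26.1 CPM, 0.10) were not called, and Ifi44, with 4 and 9 against 3 and 10 UMIs, was not tested. With cells thinned to 1000 UMIs, 1 member was called higher in CD8 T cells (0.239% of all genes), 26 in B cells (1.99%) and 6 in CD4 T cells (0.593%).

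The call sets overlap, and the classes come from the same 4 libraries. Of the 9 members called in CD4 T cells, 8 were also called in B cells, which is 88.9% of the CD4 and 25.8% of the B cell list. Of the 17 called in CD8 T cells, 16 were called in B cells (94.1% and 51.6%). Ifit1, Ifit3, Isg15, Parp9, Parp14 and Rtp4 were called in all 3, 13 members in 2 classes and 14 in 1, and 11 of the 44 in none. As 31 of the 42 members tested in B cells were called there, a high overlap with that list was largely set beforehand. No such overlap was taken over all genes.

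In Tregs, of which there were few, 1 of 33 members tested was called, Ly6a, against 0.0789% of all 8876 genes called higher. Ly6a was at 148 and 163 CPM in control and 459 and 325 CPM with EVs, with a log2 fold change of 1.33 ± 0.17 (SE, n = 2 against 2; edgeR adjusted p = 0.013). Isg15 stood at 29.8 and 35.1 CPM in control and 135 and 58.3 CPM with EVs (1.57, edgeR adjusted p = 0.083). Ifit3b held 1 UMI in each control library and 10 and 9 UMIs in the EV libraries. The members' median log2 fold change was 0.41, and the EV libraries lay above the control libraries for 20 of the 33 and for 18.4% of all genes.

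In macrophages no member was called among 15 tested, as was no gene among all 3497 (0.0% called, edgeR's quasi-likelihood test). At an unadjusted p under 0.05 by edgeR there were 3 of the 15 members and 316 of all 3497 genes. DESeq2 also called no member. The EV libraries lay above the control libraries for 5 of the 15 members and for 20.9% of all genes. None of the core genes passed the filter on low counts. Isg15 was found with 0 and 9 UMIs in control and 83 and 6 UMIs in EV libraries, so that its molecules came mostly from EV library 1. Oasl1 had 0 UMIs in control and 7 and 5 UMIs with EVs. Ifi206 was at 0 and 20.6 CPM in control and 99.9 and 66.8 CPM with EVs (2.48, SE 0.79, edgeR adjusted p = 0.42). The macrophage sums came from 42 to 91 cells per library, and a p that misses the threshold does not show that the groups were alike.

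The classes were also compared with each other, in a test of the interaction with library as a block. The effect was larger in B cells than in CD4 T cells for Slfn5 by 0.87 on the log2 scale (SE 0.13, edgeR adjusted p = 0.0036), Ifit2 by 0.82 (SE 0.14, edgeR adjusted p = 0.0076), Ifi213 by 0.49, Ifi214 by 0.45, Herc6 by 0.41 and Trim30a by 0.34, which makes 6 of 43 members where 1.79% of all genes were called in either direction. Against CD8 T cells it was larger in B cells for Ifit2 by 0.83, Ifi213 by 0.55, Ifi27l2a by 0.51 (SE 0.06, edgeR adjusted p = 0.00033), Ifi214 by 0.51, Trim30a by 0.35 and Ifi209 by 0.33 (1.71% of all genes called). Between CD8 and CD4 T cells Ifi27l2a differed, by −0.31 (SE 0.04, edgeR adjusted p = 0.0019; 0.377% of all genes called). No member was called between macrophages and B cells (0.172% of all genes called). Without control library 1, 1 member was called between B and CD4 T cells (0.635% of all genes), and without control library 2, 3 were called between B and CD8 T cells (1.18%).

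Other genes of the interferon pathway were read from the same fits, with 61 of 62 listed genes in the tables. In B cells 6 of 51 tested were called, all higher, against 1.57% of all genes. Irf7, the factor that amplifies type I interferon responses, rose from 9.60 and 11.3 CPM to 27.3 and 25.3 CPM (1.33, SE 0.12, edgeR adjusted p = 0.0032), and Socs1, a feedback inhibitor of JAK kinases, from 5.87 and 7.15 CPM to 19.0 and 17.2 CPM (1.48, SE 0.14, edgeR adjusted p = 0.0035). The sensor Tlr7 rose by 0.67 on the log2 scale and the interferon gamma receptor chain Ifngr2 by 0.45. The type II interferon targets Irgm1 and Nlrc5 rose by 0.57 and 0.51, and no other listed type II target was called in B cells. In CD4 T cells 1 of 49 was called (0.788% of all genes called higher), Socs1, from 29.7 and 30.3 CPM to 82.9 and 45.9 CPM (1.09). In CD8 T cells 5 of 50 were called (1.34% of all genes), which were Socs1 (1.01), Ifngr1 (0.72), Irf7 (0.62), Igtp (0.49) and Gbp7 (0.37). None of 44 was called in Tregs (7 genes in all called higher) and none of 28 in macrophages by edgeR. Of the ligands, the type I and type III interferon genes listed had no UMI in the B cell gate, and Ifng had 2 and 8 UMIs in control and 4 and 4 UMIs in EV libraries there. The absence of a UMI allows an expected count of up to 3 UMIs per library, and RNA that was not captured is not counted.

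The next question was whether a few strong cells or all cells carried the difference. The members together made up 3412 and 3481 CPM, here without TMM, in the B cell gate of the control and 4689 and 4432 in the EV libraries, a ratio of the means of 1.32. The same ratio was 1.34 in CD4 T cells (2910 and 3018 against 4057 and 3858), 1.25 in CD8 T cells (3168 and 3333 against 3894 and 4237) and 1.40 in Tregs (4020 and 4133 against 6064 and 5333). The groups did not overlap in these 4 classes, and they did in macrophages (3641 and 4396 against 5761 and 4097). These sums are led by abundant genes. Ifi27l2a gave 21.8% of the B cell difference and 28.0% of that in CD4 T cells, and Epsti1 19.1% of that in CD8 T cells. The 10 core genes gave 6.46%, 8.23% and 10.6%. Heat shock genes moved in the same libraries, at 1895 and 2141 CPM in the control and 3364 and 3540 in the EV B cells. Library sizes without heat shock, ribosomal and other abundant genes gave 31 calls in B cells (1.55% of all genes called higher). They gave 17 in CD8 T cells (1.34%) and 10 in CD4 T cells (0.83%). Such library sizes change the scaling only. The part of heat shock genes in these values was not tested.

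To compare cells at equal depth, each was thinned at random to 1000 UMIs, and shallower cells were left out. These were 6 to 9 B cells per library, 1 CD4 T cell, no CD8 T cell or Treg, and 18 and 37 macrophages in the control and 30 and 23 in the EV libraries. The median B cell then held 3 member UMIs in both control and 4 in both EV libraries, and 5.71% and 5.61% of the control and 3.38% and 3.89% of the EV B cells held none. In CD4 and CD8 T cells the medians were 2 to 3 in control and 3 in EV libraries. When the cells of each library were ranked by member UMIs and cut into 10 equal bins, the EV mean was above the control mean in all 10 bins in the B, CD4 T, CD8 T and Treg gates. The EV libraries both exceeded both control libraries in 9, 7, 10 and 9 of these bins. The uppermost bin held 35.7% of the B cell difference, 43.2% of that in CD4 T cells, 43.8% in CD8 T cells and 41.4% in Tregs. In the control libraries the same bin held 25.9%, 28.2%, 25.3% and 24.6% of the member UMIs. A difference in exact proportion to each cell's count would give the uppermost bin that control share. At so few UMIs per cell much of the spread is sampling, so an even rise in all cells need not give that share. The EV mean was thus higher in all bins, and the uppermost one held more of the difference than its control share. Each library was ranked on its own, so a rise in only part of the cells can lift the lower bins as well. The bins therefore cannot tell a change of all cells from a change of a part of them. The uppermost 1% of cells held 8.34%, 12.8%, 11.3% and 6.86% of the difference. Without EV library 2 it held 8.31% in CD4 T cells, 5.47% in CD8 T cells and 4.17% in Tregs, and without EV library 1 18.7%, 15.6% and 11.3%. Without Ifi27l2a, Ly6e, Ly6a and Epsti1, an alternative chosen after seeing the data, the uppermost bin held 47.0% in B cells, 52.1% in CD4 T cells and 54.8% in CD8 T cells. The result leaned on single libraries, since leaving out EV library 1 gave 55.0% in CD4 T cells and leaving out EV library 2 gave 34.2%.

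**Figure D3:**
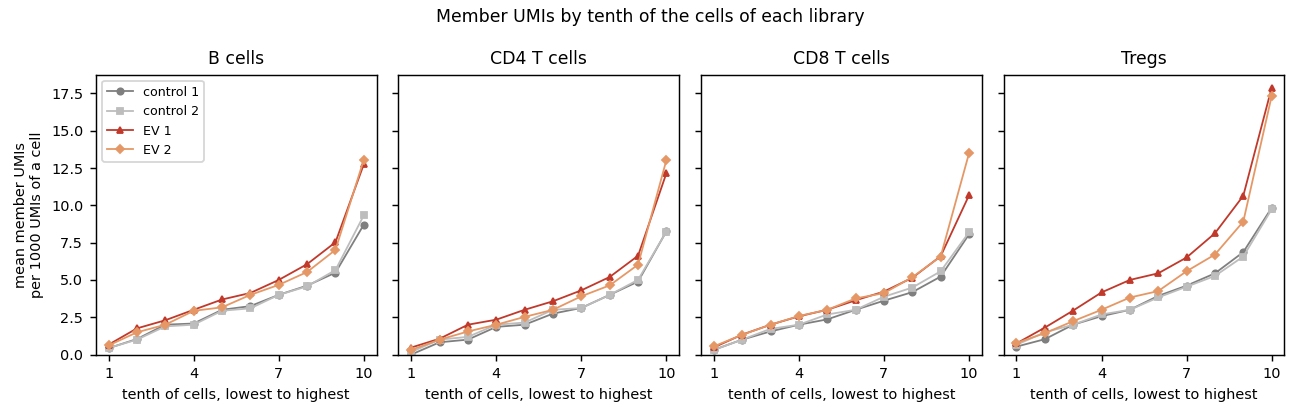
Mean number of member UMIs per cell, after thinning every cell to 1000 UMIs, in 10 equal bins of the cells of each library ranked from lowest to highest, for 4 classes. The means of the red and orange EV lines lie above those of the gray control lines in every bin, and the gap widens in the uppermost bin, where EV libraries reach 10.7 to 17.9 UMIs and control libraries 8.06 to 9.83.

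Strong cells were defined as cells holding UMIs of at least 3 of the 10 core genes (Ifit1, Ifit2, Ifit3, Ifit3b, Isg15, Rsad2, Oasl1, Cmpk2, Usp18 and Ifi44) at 1000 UMIs. They were rare in every library. In B cells they were 3 of 3010 (0.0997%, exact 95% interval 0.0206 to 0.291%) and 5 of 2495 (0.200%, 0.0651 to 0.467%) in control, and 28 of 4857 (0.576%, 0.383 to 0.832%) and 35 of 4295 (0.815%, 0.568 to 1.13%) in EV libraries. In CD4 T cells they were 1 and 2 cells in control (0.0723% and 0.123%) and 7 and 22 in EV libraries (0.758% and 1.74%). In CD8 T cells they were 4 and 3 cells (0.238% and 0.161%) against 7 and 21 (0.698% and 1.55%). No strong Treg was found among 213 and 172 control cells, which allows shares of up to 1.41% and 1.74% when 3 cells are taken as the limit (exact 95% upper limits 1.72% and 2.12%), and there were 2 of 117 and 3 of 134 in the EV libraries. In macrophages the groups overlapped, with 0 of 24 and 1 of 43 cells in control and 2 of 61 and 0 of 44 in EV libraries. The share was thus higher in both EV libraries in the 3 large classes. The core genes that define strong cells rose in these libraries, so an even rise in all cells would also raise the share. The share therefore cannot tell a few strong cells from a change of all cells. All classes can express these genes, so the level from free RNA was not measured, and the intervals cover counting error only. Without thinning the shares in B cells were 0.630% and 1.56% in control and 4.23% and 4.37% in EV libraries. At 1000 UMIs and without strong cells, B cells held means of 3.45 and 3.46 member UMIs in control and 4.58 and 4.28 with EVs. In CD4 T cells these were 2.86 and 2.98 against 3.93 and 3.46, and in CD8 T cells 3.12 and 3.27 against 3.87 and 3.93. In Tregs they were 3.98 and 3.98 against 6.17 and 5.07. The member difference thus did not lie only in cells strong at this depth. Some of the other cells count as strong at full depth, and whether all cells changed is not shown.

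**Figure D4:**
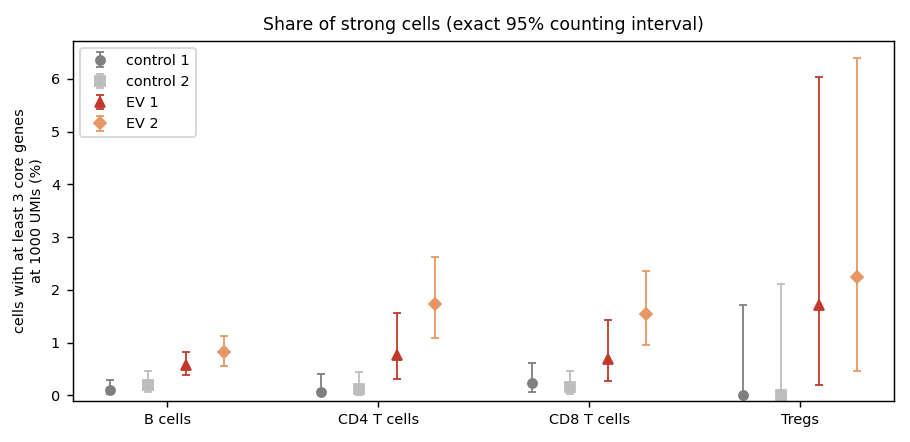
Percent of cells with UMIs of at least 3 core genes at 1000 UMIs per cell, by class and library, with exact 95% counting intervals. In the 3 large classes the EV points (0.576% to 1.74%) lie above the control points (0.0723% to 0.238%). Some EV and control intervals overlap in each of these classes, and the Treg intervals are wide.

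Most cells held no core molecule at this depth in either group, 96.6% and 95.6% of the control and 92.2% and 92.2% of the EV B cells. Cells with UMIs of exactly 1 core gene made up 3.02% and 3.93% of the control and 6.30% and 6.08% of the EV B cells, and they gave 40.5% of the difference in core UMIs. Cells with 2 core genes gave 21.3% and strong cells 38.2%. In T cells strong cells gave 60.8% (CD4) and 61.6% (CD8) of the core difference. Cells were sorted here by the same core genes whose UMIs were counted. A cell without a core gene thus adds nothing, and a strong cell adds several UMIs by construction. These parts describe where the counted UMIs lay and cannot tell a few strong cells from a change of all cells. Leaving out EV library 2 lowered these parts to 37.4% and 44.2%, with 33.7% in B cells, and leaving out EV library 1 gave 84.0% and 68.1%, with 42.2% in B cells. These parts cover core UMIs only. Over all members, strong cells gave 0.0123 and 0.0129 UMIs per CD4 T cell in control and 0.170 and 0.399 with EVs. The EV minus control difference over all these cells was 1.01 UMIs. In CD8 T cells they gave 0.0214 and 0.0210 against 0.124 and 0.389, of a difference of 0.903. In B cells they gave 0.0189 and 0.0413 against 0.135 and 0.199, of 1.09. Most of the member difference thus lay outside cells strong at this depth.

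Single members differed in how their molecules were spread. At 2000 UMIs per cell, and with strong cells defined by the core genes other than the one counted, strong cells made up 1.40% and 1.92% of the EV B cells for the members outside the core. Of the EV molecules of Ifit1, 60.7% were in strong cells, of Ifit3b 59.2%, of Rsad2 54.5%, of Ifit3 44.5% and of Ifit2 40.7%. The core genes Isg15 (26.5%), Usp18 (23.5%) and Oasl1 (11.6%) were spread more widely. Over the 23 called members outside the core the median was 11.4%, from 5.77% for Ifi27l2a to 25.6% for Oas3. In the remaining B cells, all 31 called members were still higher in EV than in control libraries by the ratio of the means, with a median log2 ratio of 0.94 for the 8 core genes, against 1.48 in all cells, and of 0.61 for the other 23, against 0.76. In CD4 T cells 72.1% of the EV Ifit3 molecules were in strong cells, and the log2 ratio in the remaining cells was −0.29. In the remaining CD4 T cells 8 of the 9 called members were higher in EV than in control libraries, with median log2 ratios of 0.56 for the 3 core genes and 0.54 for the other 6. In CD8 T cells the shares of the 6 called core genes ran from 23.5% to 42.4%. All 17 called members were higher in the remaining CD8 T cells, with medians of 0.60 for the core genes and 0.37 for the other 11. The called members were picked as higher in these same libraries, and the remaining cells are most of the same cells. Their direction there was thus largely set beforehand, and no share over all genes stands beside these counts. Members that were not called went in both directions in the remaining cells.

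**Figure D5:**
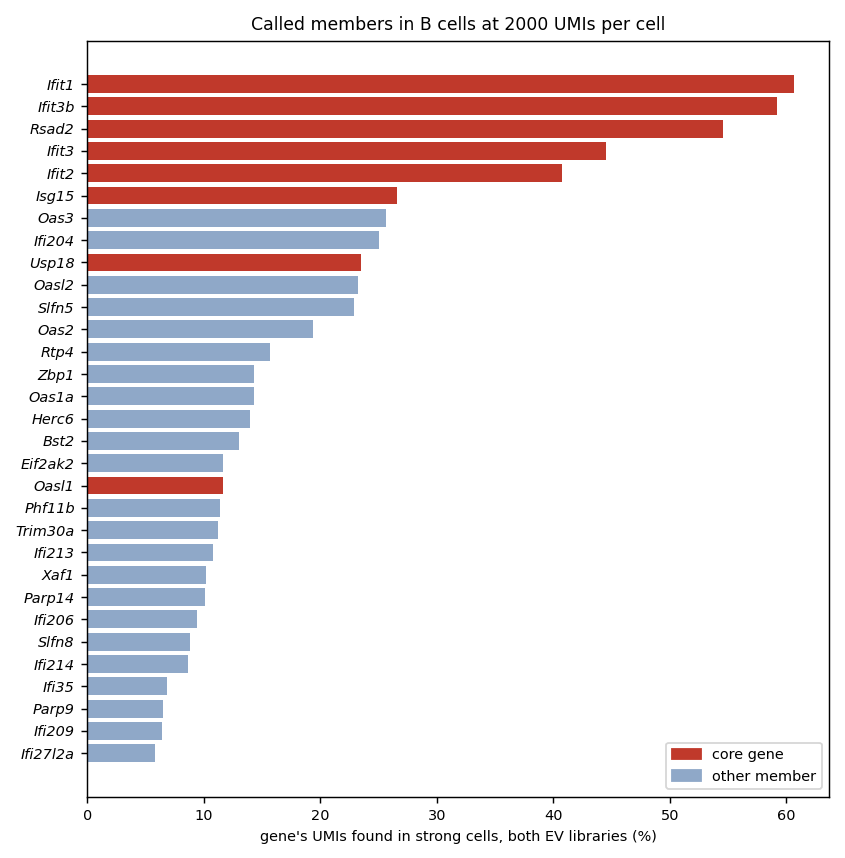
Percent of each called member's UMIs in the EV B cells that were found in strong cells, both EV libraries pooled, with cells thinned to 2000 UMIs. Red bars are core genes and blue bars other members, and the bars run from 5.77% for Ifi27l2a to 60.7% for Ifit1.

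The fits were repeated without the cells that held at least 3 core genes at full depth, which left out 0.630% and 1.56% of the control and 4.23% and 4.37% of the EV B cells. This takes core molecules out by construction, and more cells pass in the deeper EV libraries. In B cells 9 of 40 members tested were still called higher, where 0.781% of all genes were, and all 9 had been called with all cells. They were Oas2 (1.60), Oasl1 (1.02), Phf11b (0.69), Parp9 (0.57), Ifi214 (0.57), Trim30a (0.56), Herc6 (0.55), Ifi27l2a (0.75) and Ifi35 (0.43). Of the 32 other members tested, 31 had a positive log2 fold change, with a median of 0.49 against 0.69 with all cells. In CD4 T cells 1 member, Ifi204, was still called (0.659% of all genes). With all cells, Ifi204 rested on few molecules there and passed the filter on low counts through the EV libraries only. The median outside the core was 0.18 against 0.40 in CD4 T cells. In CD8 T cells none was called by edgeR (0.947% of all genes), with 0.16 against 0.38, and in Tregs Ly6a was (0.0692% of all genes). Without cells holding at least 2 core genes, 10 members were called in B cells (1.19% of all genes) and none in CD4 T cells (0.46%), CD8 T cells (0.853%) or Tregs (0.0477%) by edgeR. In B cells, 9 of the 31 members called with all cells were thus still called without cells of at least 3 core genes. Most calls were lost there too. In CD4 and CD8 T cells most or all calls were lost. A lost call does not show that the remaining cells did not differ.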

How the data were processed

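Libraries were made with 10x 3′ chemistry, and the deposited counts are whole UMI counts per gene and cell that the authors made with Cell Ranger 7.1.0 on mm10. Which annotation release was used, and whether intronic reads were counted, is not given in the sources used here. The members and lists were chosen with earlier results of these data known, and 1 pathway gene and 1 marker gene of those lists are not reported here. Cells were filtered and gated on markers as stated above, without doublet removal. Raw UMIs were summed per library and gate and tested 2 EV against 2 control libraries in edgeR 4.0.16 (R 4.3.3) by the quasi-likelihood test, with TMM, filterByExpr and Benjamini-Hochberg adjustment over all genes tested. The SE given with edgeR values is the absolute log2 fold change over the square root of the test's F statistic. It thus restates that test, whose spread draws on all genes. A cell-level test was not used, since cells of 1 library are not replicates. The interaction fits had library as a block. Cells were thinned to 1000 or 2000 UMIs with a fixed seed (numpy 2.4.6, Python 3.11.15). Summed member levels are CPM of the gate without TMM. Values per library were given for every member called in at least 1 class and for the core genes, and pathway genes were named where called. The steps were tested on simulated data. Library totals ran from 50749656 to 70418672 UMIs, and intervals cover counting error only. Alternatives were DESeq2 1.42.0, no filter on low counts, the replicate number as a block, other scaling, cell filters, gates and depths, and leaving out each library. Sums without 4 abundant members or without the core genes, and the shares of single members in strong cells at 2000 UMIs, were added after the data were seen.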

Additional observations from a re-analysis of the deposited data

Results flagged for a closer look

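The effect of EVs differed between cell classes for these members by the interaction test in edgeR. B cells exceeded CD4 T cells by 0.87 for Slfn5, 0.82 for Ifit2, 0.49 for Ifi213, 0.45 for Ifi214, 0.41 for Herc6 and 0.34 for Trim30a on the log2 scale. B cells exceeded CD8 T cells by 0.83 for Ifit2, 0.55 for Ifi213, 0.51 for Ifi27l2a, 0.51 for Ifi214, 0.35 for Trim30a and 0.33 for Ifi209. The effect on Ifi27l2a in CD8 minus CD4 T cells was −0.31.

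Cells outside the main comparisons also held these transcripts. In the filtered cells outside the 5 gates, the members summed to 3011 and 3484 CPM in the control and 4679 and 4356 in the EV libraries, with an EV mean of 4517. Barcodes over 20000 UMIs or 5000 genes, of which there were 50 and 83 in the control and 218 and 234 in the EV libraries, held 2918 and 3366 against 3650 and 3434 CPM, with an EV mean of 3542. Neither set was tested on its own. The second entered the alternative without upper limits on cells.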

How the results depend on the processing

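No member called in a main fit turned to a lower call, and the summed level kept its direction in every lymphocyte class under each alternative run. Counts of members called moved as follows. Leaving out 1 library gave 12 to 36 in B cells (12 without control library 1), 5 to 32 in CD4 T cells, 12 to 35 in CD8 T cells, 1 to 5 in Tregs and 0 to 4 in macrophages, where 0.455% to 11.9%, 0.523% to 9.79%, 0.775% to 9.4% and 0.0438% to 1.13% of all genes were called higher and, in macrophages, 0.38% to 1.89% in either direction, with a lone library assumed to vary like the other group. Without a filter on low counts, 23 were called in CD4 T cells (1.97% of all genes higher), 27 in CD8 T cells (2.02%), 6 in Tregs (0.593%) and 1 in macrophages (0.232%). With the replicate number as a block, 35 were called in B cells (4.21%), 24 in CD4 T cells (3.4%), 26 in CD8 T cells (4.02%) and 3 in Tregs (0.868%). Same-numbered libraries deviated together with correlations of −0.06 to 0.13 over 2 pairs, which are too few to show a pairing, and the labels give only the number. DESeq2 called 2 in Tregs (0.977%). Cells thinned to 1000 UMIs gave 1 in CD8 T cells (0.239%) and 0 in Tregs (0.101%), no upper limits with a mitochondrial limit of 5% gave 6 (0.668%) and 0 (0.0%), and stricter gates gave 10 in CD8 T cells (0.863%). Without cells holding at least 3 core genes, 9 were called in B cells, 1 in CD4 T cells and 0 in CD8 T cells. With at least 2, the counts were 10, 0 and 0, and 0 in Tregs. Log2 fold changes that reversed were Ifit2 in B cells (−0.15 and −0.38 without cells of 3 and 2 core genes), Ifit3 in CD4 T cells (−0.55 and −0.19) and CD8 T cells (−0.022 and −0.24), and without cells of 2 core genes Ifit1 in CD4 T cells (−0.19) and Oasl1 (−0.13) and Slfn5 (−0.053) in CD8 T cells. Leaving out such cells removes core molecules by construction. Oas3 in CD8 T cells was −0.039 in thinned cells. Without Ifi27l2a, Ly6e, Ly6a and Epsti1 the log2 ratio of the summed level was 0.50 in B cells and 0.34 in CD4 T cells, and the uppermost 10% of cells held 47.0% of the difference in B cells and 28.0% in macrophages. With stricter gates it held 48.8% in macrophages, and leaving out 1 library gave 30.8% to 51.3%. The EV minus control share of strong cells was 0.55 percentage points in B cells, 1.15 in CD4 T cells, 0.92 in CD8 T cells, 1.97 in Tregs and 0.48 in macrophages. With at least 2 core genes it was 1.20 in B cells, 1.89 in CD8 T cells and 1.43 in Tregs, and with at least 4, 0.289 in B cells and 0.427 in Tregs. At 2000 UMIs it was 1.36 in B cells and 1.62 in CD8 T cells. Without thinning it was 3.21 in B cells, 4.63 in CD4 T cells, 5.38 in CD8 T cells, 6.55 in Tregs and 3.77 in macrophages. Stricter gates gave 2.55 in Tregs. Leaving out 1 library, the share of strong cells in macrophages ran from −1.16 (without EV library 1) to 2.12, and was −0.69 without control library 1. Interaction calls without the filter were 13 for B against CD4 (2.38% of all genes), 2 for CD8 against CD4 (0.807%) and 13 for B against CD8 T cells (2.25%), and leaving out 1 library gave 1 to 9, 1 to 2, 3 to 18 and, for macrophages against B cells, 0 to 1 (0.635% to 3.09%, 0.607% to 0.733%, 1.18% to 3.78% and 0.0238% to 0.377% of all genes). Where no reason is given, the cause was not tested. Tregs (117 to 213 cells per library) and macrophages (42 to 91) were the smallest classes.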
